A study of Mus musculus with 5 samples.

Results

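The RNA sensors and endosomal Toll-like receptors described here are 10 genes, taken by name from the 32285 genes of the count matrices. They are Ddx58 (RIG-I), Ifih1 (MDA5) and Dhx58 (LGP2), the RIG-I-like receptors; Mavs, their mitochondrial adaptor; Eif2ak2 (PKR), a kinase switched on by double-stranded RNA; Ddx60, a helicase linked to RIG-I signalling; and Tlr3, Tlr7, Tlr9 and Unc93b1, the endosomal receptors and the chaperone that brings them to endosomes. All 10 had UMIs (unique molecular identifiers, one per captured RNA molecule). Each member was followed through every cell class of all 5 libraries, and R241E was compared with WT in each class where enough nuclei were available.

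Cells recognise foreign or misplaced RNA in the cytosol through the RIG-I-like receptors, which bind RNA and assemble Mavs on mitochondria, and through Eif2ak2, which halts translation by phosphorylating eIF2. The Toll-like receptors of this group sample the lumen of endosomes instead, where Tlr3 reads double-stranded RNA, Tlr7 single-stranded RNA and Tlr9 DNA rich in CpG. Microglia, the resident macrophages of the brain, carry both arms, and several cytosolic sensors are themselves classic interferon-stimulated genes.

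Single-nucleus RNA-seq was carried out on nuclei labelled as mouse hippocampus and microglia, sorted as DAPI-positive, NeuN-negative and Olig2-negative. The 2 R241E mice carried the Tmem119-creERT2 driver and 1 R241E copy of Cgas (wt/R241E), and the 3 WT mice the same driver with Cgas wt/wt. R241E weakens the hold of nucleosomes on cGAS, a DNA sensor whose product activates STING and through it type I interferon. Per the study's methods, the allele was made in C57BL/6J zygotes and tamoxifen was given to young adults, which switches the allele on mainly in microglia and brain macrophages. A text on H151 or DMSO in aged mice accompanies all samples, but no label assigns either to a sample. The study's results name the controls of this experiment differently from its methods and the titles, and the titles were followed. Each library came from 1 mouse, and p-values measure the spread between these libraries.

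The libraries held 1381 to 2490 deposited nuclei and 4183709 to 10130667 UMIs, and 9505 of 9748 nuclei were kept. Clusters were named from marker genes, and 7 classes had at least 20 nuclei in every library. Microglia were the largest, with 1010 and 526 nuclei in the R241E libraries (replicates 1 and 2, the order kept below) and 927, 1476 and 1456 in the WT libraries (replicates 1 to 3), and all 9 microglial markers were detected in them (7227 and 8144 CPM summed in R241E, 8064 to 8576 in WT). CPM is the UMIs of a gene summed over the nuclei of a class in 1 library, per 1000000 UMIs of all genes in that sum. Different clusters held most microglia of the genotypes: a cluster led by Ifi207, Ifi204 and Ifi209 held 72.2% and 49.8% of R241E microglia and 1.62% to 2.61% of WT microglia. Markers of other cells also moved: in summed microglia oligodendrocyte markers, 6 of 7 of them higher in both R241E libraries, stood at 246 and 366 CPM in R241E and 158 to 180 in WT, and lymphocyte markers (5 of 8) at 17.8 and 7.59 CPM against 1.61 to 3.64. Monocyte and neutrophil markers (3 of 8) stood at 737 and 640 CPM against 559 to 583, mural markers (3 of 7) at 27.4 and 33.1 against 14.6 to 20.6, and fibroblast markers (2 of 7) at 38.0 and 53.1 against 24.7 to 37.0. Their part in the results below was not tested. A point change in Cgas cannot be read from gene counts, so the labels were not checked against the allele. Across the kept nuclei, 13 barcodes were shared between pairs of libraries.

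The promoter sequences are shown because several sensors moved together. RefSeq (GRCm38.p6) gave a window from 250 bases before to 50 bases after the start for 7 members (Ddx58, Ifih1, Mavs, Eif2ak2, Ddx60, Tlr3 and Tlr9), and no window was taken for Dhx58, Tlr7 and Unc93b1. The core of the interferon-stimulated response element, the binding site of interferon-activated factors, was searched on both strands as GAAANNGAAA. It was in 3.44% of all 32851 windows and in 4 of the 7 member windows. Capitals mark the core, and the Mavs window, which holds none, is shown for comparison.
Ddx58 promoter, chr4:40239776-40240075, minus strand: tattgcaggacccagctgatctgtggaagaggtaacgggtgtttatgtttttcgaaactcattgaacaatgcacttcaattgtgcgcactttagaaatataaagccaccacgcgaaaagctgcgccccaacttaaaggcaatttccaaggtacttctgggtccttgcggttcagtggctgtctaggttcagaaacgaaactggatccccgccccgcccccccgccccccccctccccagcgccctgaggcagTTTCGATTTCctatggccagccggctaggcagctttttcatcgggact
Ifih1 promoter, chr2:62646206-62646505, minus strand: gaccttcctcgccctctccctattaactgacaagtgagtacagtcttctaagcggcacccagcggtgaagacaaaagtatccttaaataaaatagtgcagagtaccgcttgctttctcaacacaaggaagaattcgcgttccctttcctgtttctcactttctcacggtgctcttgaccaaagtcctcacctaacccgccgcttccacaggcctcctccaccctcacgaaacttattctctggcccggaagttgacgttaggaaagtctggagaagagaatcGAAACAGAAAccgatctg
Eif2ak2 promoter, chr17:78882523-78882822, minus strand: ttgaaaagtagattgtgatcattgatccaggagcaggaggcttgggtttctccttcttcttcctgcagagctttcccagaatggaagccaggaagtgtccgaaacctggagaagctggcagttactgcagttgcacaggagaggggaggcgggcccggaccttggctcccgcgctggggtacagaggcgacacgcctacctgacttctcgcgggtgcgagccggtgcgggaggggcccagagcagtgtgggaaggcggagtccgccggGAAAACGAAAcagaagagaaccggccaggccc
Ddx60 promoter, chr8:61927837-61928136, plus strand: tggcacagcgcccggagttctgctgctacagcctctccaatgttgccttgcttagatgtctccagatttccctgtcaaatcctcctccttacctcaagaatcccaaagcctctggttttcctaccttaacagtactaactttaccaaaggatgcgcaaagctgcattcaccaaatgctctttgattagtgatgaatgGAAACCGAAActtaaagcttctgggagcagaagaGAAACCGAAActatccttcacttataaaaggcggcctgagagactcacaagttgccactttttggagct
Mavs promoter, chr2:131233813-131234112, plus strand: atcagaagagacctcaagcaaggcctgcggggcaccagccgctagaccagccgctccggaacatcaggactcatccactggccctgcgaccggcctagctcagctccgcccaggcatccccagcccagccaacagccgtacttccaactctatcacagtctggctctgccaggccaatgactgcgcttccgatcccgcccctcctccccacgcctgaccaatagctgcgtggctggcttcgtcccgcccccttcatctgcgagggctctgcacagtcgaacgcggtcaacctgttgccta

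With the start base counted as 0, the core spanned bases 2 to 11 in Ddx58, on the opposite strand, 32 to 41 in Ifih1 and 18 to 27 in Eif2ak2. Ddx60 held 2 copies, at -53 to -44 and at -19 to -10. The gamma-interferon-activated sequence TTCNNNGAA, present in 8.3% of all windows, occurred at 1 place in Eif2ak2 (-178 to -170). A match is a description of the letters and not a measured site, and the windows of Tlr3 and Tlr9 held neither element. The Ddx60 window was drawn around a start 14 bases inside the outer end of the gene, and that of Tlr3 around a start 695 bases inside it.

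**Figure D1:**
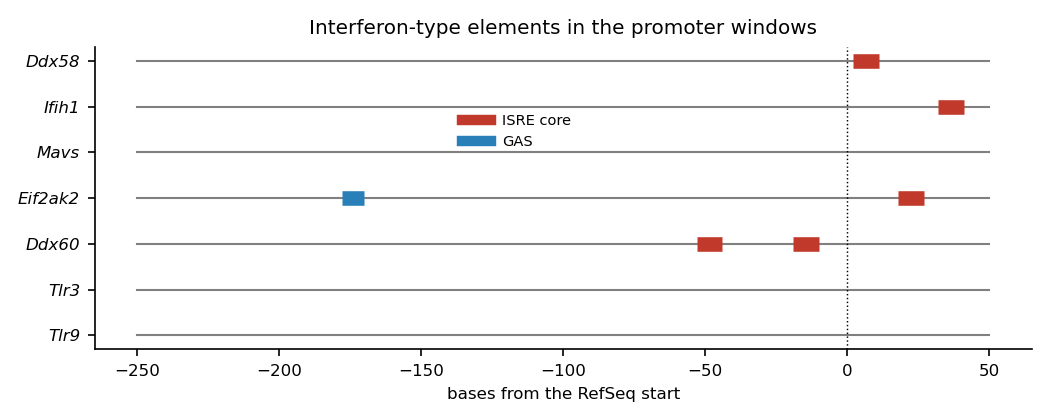
Positions of the response element core (ISRE core) and of the gamma-interferon-activated sequence (GAS) in the promoter windows of 7 members, in bases from the RefSeq start. Ddx58, Ifih1, Eif2ak2 and Ddx60 held the core, at 5 places in all, and the windows of Mavs, Tlr3 and Tlr9 held neither.

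In microglia, the cytosolic sensors and Tlr3 rose in R241E while Mavs, Tlr7 and Unc93b1 did not pass the test. Of the 9 members tested, 6 were higher at an adjusted p under 0.05 by edgeR's quasi-likelihood test and none was lower, against 5.93% of the 12752 genes tested higher and 3.25% lower. The median log2 fold change of the 9 was 1.33, and that of all genes -0.01. Whole groups did not overlap, with both R241E libraries above all WT libraries, for 7 members, as for 20.4% of all genes. Tlr9 was too rare to be tested.

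Ddx58, on chromosome 4 (chr4:40203777-40239825), measured 103 and 91.0 CPM in the R241E libraries and 37.2, 39.8 and 37.9 CPM in the WT libraries. Its groups stood apart, and it rose by 1.33 on the log2 scale (SE 0.13, adjusted p = 5.1e-06, edgeR). Ifih1, which senses long double-stranded RNA (chr2:62595618-62646255), was at 95.4 and 80.0 CPM in R241E and 28.7, 22.1 and 17.9 CPM in WT. Every R241E value exceeded every WT value, with a log2 fold change of 1.96 (SE 0.17, adjusted p = 2.1e-06).

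Dhx58, an RNA-binding regulator without signalling domains (chr11:100694884-100704271), was scarce in WT, at 5.25, 4.83 and 5.38 CPM from 13 to 21 UMIs. It reached 32.7 and 26.9 CPM in R241E, from 105 and 39 UMIs. This was the largest fold among the members, 2.54 on the log2 scale (SE 0.23, adjusted p = 2.9e-06), or 5.82 times the WT level.

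Mavs, through which these receptors signal (chr2:131234063-131248025), was at 32.4 and 32.4 CPM in R241E libraries against 27.9, 29.2 and 34.0 CPM in WT. The groups overlapped, and the log2 fold change was 0.07 with a 95% interval of -0.28 to 0.43 (adjusted p = 0.86). Whether Mavs changed less than the receptors was not tested.

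Eif2ak2 (chr17:78850504-78882572) stood at 195 and 179 CPM in R241E libraries against 50.1, 47.3 and 44.2 CPM in WT, a log2 fold change of 1.98 (SE 0.11, adjusted p = 1.3e-08). Ddx60 (chr8:61928073-62037704) was almost level between the R241E libraries, at 190 and 186 CPM, against 47.7, 51.0 and 47.2 CPM in WT. It rose by 1.93 on the log2 scale (SE 0.11, adjusted p = 1.1e-08). Both genes separated the genotypes without overlap, at close to 3.9 times the WT level (3.94 and 3.80). Eif2ak2 overlaps Gm6548 and Gm26637 in the annotation, Ifih1 overlaps Gm39839 and Dhx58 overlaps Gm38483. Cell Ranger assigned the reads to genes, and the part of these overlaps in the member counts was not tested.

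Among the endosomal genes, Tlr3 alone passed the test. It was at 123 and 125 CPM in R241E and 72.3, 80.9 and 92.6 CPM in WT (chr8:45395665-45411075), with no overlap. The log2 fold change was 0.57 (SE 0.12, 95% interval 0.32 to 0.82, adjusted p = 0.0056), and without R241E replicate 1 the adjusted p was 0.080.

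Tlr7 (chrX:167303380-167330574) was at 200 and 237 CPM in R241E libraries against 215, 192 and 187 CPM in WT. The groups overlapped, and the log2 fold change was 0.11 (95% interval -0.12 to 0.35, adjusted p = 0.65). Unc93b1, the chaperone of the endosomal receptors (chr19:3935158-3949340), was at 919 and 905 CPM in R241E libraries against 811, 827 and 813 CPM in WT. Its groups did not overlap, but the log2 fold change of 0.14 (95% interval -0.04 to 0.32) missed the threshold (adjusted p = 0.41). Tlr9 (chr9:106222598-106226876) gave 11 UMIs in R241E microglia and 17 in WT microglia, which is 2.49 and 2.07 CPM against 2.42, 0.92 and 2.09 CPM, too few for a test at this depth.

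**Figure D2:**
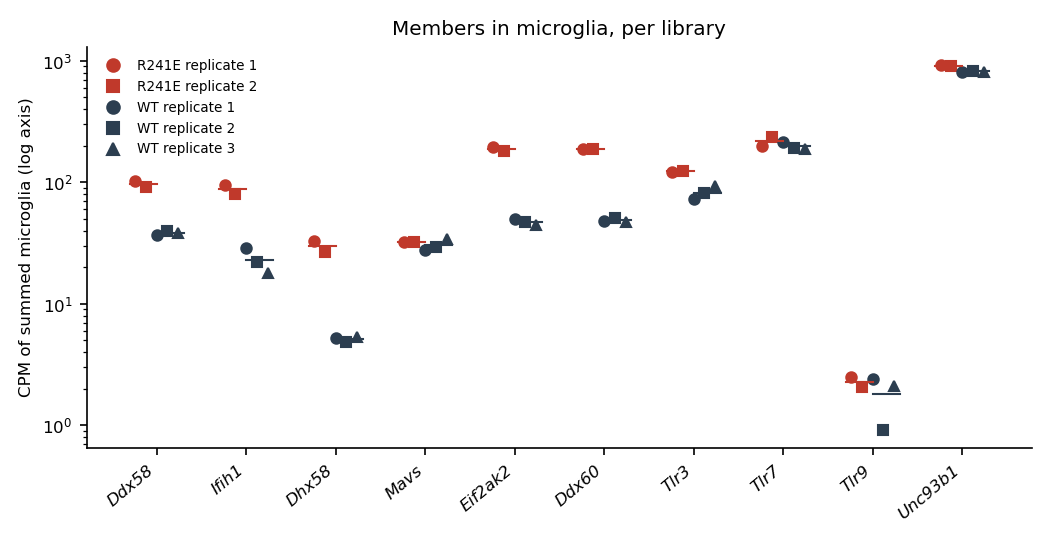
CPM of the 10 members in summed microglia on a log axis, with 1 point per library and horizontal lines at the group means. Ddx58, Ifih1, Dhx58, Eif2ak2 and Ddx60 lie apart by genotype, with Ddx60 at 190 and 186 CPM in R241E and 47.2 to 51.0 CPM in WT, while Mavs and Tlr7 overlap.

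The same nuclei were then counted instead of their UMIs. Every microglial nucleus was thinned to 1000 UMIs, which removed depth as a difference, and 9 to 65 nuclei per library fell below that number. Eif2ak2 was seen in 14.8% and 15.4% of R241E microglia (148 of 1001 and 77 of 500) and in 4.09%, 4.41% and 4.17% of WT microglia. Ddx60 was seen in 13.5% and 11.6% of R241E microglia and in 4.43%, 4.82% and 4.53% of WT microglia. Ddx58 was seen in 8.99% and 8.6% of R241E microglia and in 2.77%, 3.58% and 3.52% of WT microglia.

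Most microglia held no UMI of any single cytosolic sensor at this depth, in either genotype. Without thinning, the shares were larger, for Eif2ak2 35.2% and 29.8% in R241E and 11.1%, 11.4% and 9.0% in WT. Exact binomial intervals (95%, counting error only) put Dhx58 at 1.7% to 3.78% and 1.54% to 4.65% in R241E, and no higher than 1.17% in any WT library. In all, 8 of the 10 members were higher in both R241E libraries than in every WT library, against 17.9% of the 9733 genes with at least 50 thinned UMIs. Tlr9, not among the 8, lay below that number of UMIs. For each of the 8 the exact permutation test gave p = 0.1, two-sided, the smallest value that 2 against 3 libraries allow.

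Mavs was 1 of the 8, at 3.7% and 4.0% against 2.65% to 2.8%. The expected share over all draws, an alternative chosen after the data were seen, was 3.30% and 3.16% in R241E and 2.62%, 3.07% and 3.12% in WT, still without overlap but closer together (exact permutation p = 0.3). Tlr7 was seen in 16.8% and 18.2% of R241E microglia and in 17.1%, 15.6% and 15.5% of WT microglia, with overlap. Unc93b1 was seen in 0% to 3.45% of thinned neurons, against 52.7% to 57.7% of microglia. Median UMIs before thinning were 2791 to 5303 in neurons and 2062 to 3070 in microglia.

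Whether member transcripts follow other interferon genes from nucleus to nucleus was described with 23 interferon-stimulated genes that hold no member, all 23 of them higher in R241E microglia by edgeR. Thinned microglia with no UMI of the 23 made up 24.98% and 32.4% of R241E nuclei and 78.7% to 81.2% of WT nuclei. Nuclei with 3 or more made up 33.2% and 23.0% of R241E nuclei but only 10, 14 and 18 nuclei in the WT libraries (0.964% to 1.29%). Values are UMIs of the member per 10000 UMIs.

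Ddx60 differed widely between the bins. In nuclei with none its level was 0.96 and 0.617 in R241E against 0.422, 0.482 and 0.434 in WT. In nuclei with 3 or more it was at 3.55 and 4.52 in R241E libraries against 5.0, 5.0 and 4.44 in the few such WT nuclei. The genotypes overlapped there, from only 5, 7 and 8 UMIs in WT.

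Ddx58 went from 0.44 and 0.494 to 1.48 and 2.43 in R241E, and from 0.218, 0.342 and 0.31 to 2.0, 3.57 and 3.33 in WT. Eif2ak2 went from 0.92 and 1.24 to 2.95 and 2.61 in R241E, and from 0.395, 0.412 and 0.381 to 3.0, 0.714 and 2.22 in WT. Ddx58, Eif2ak2 and Ddx60 were each higher with 3 or more than with none in all 5 libraries. Ifih1 and Mavs were higher in 4 of the libraries, Tlr3 and Tlr7 in 3, and Dhx58 and Unc93b1 in 2. The share of all genes higher in this way was not computed, so these counts have no background. Dhx58 had 0 UMIs with 3 or more in every WT library, where there were few such nuclei.

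Tlr7 went from 1.68 and 2.16 with none to 2.26 and 1.91 with 3 or more in R241E, and from 1.95, 1.64 and 1.88 to 5.0, 3.57 and 1.67 in WT, the last from 5, 5 and 3 UMIs. Unc93b1 went from 9.04 and 8.83 to 9.25 and 8.17 in R241E, and from 7.98, 8.13 and 7.80 to 9.0, 6.43 and 7.78 in WT. The difference between members in this respect was not tested.

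In nuclei with none, 8 members were higher in both R241E libraries than in every WT library (exact permutation p = 0.1 for each), against 16.6% of the 8356 genes with at least 50 UMIs there. Among them was Eif2ak2, at 0.92 and 1.24 against 0.381 to 0.412. Dhx58, also among them, rested on only 2 and 3 UMIs in the R241E libraries. Dhx58 and Tlr9 had under 50 UMIs in nuclei with none, so the share of all genes does not cover them. At 2000 UMIs per nucleus the count fell to 3, namely Dhx58, Eif2ak2 and Tlr7, from 83 and 53 R241E nuclei with none. The share of all genes was not computed at 2000 UMIs, so this count has no background. Dhx58 was rare there, at 0.0602 and 0.0943 in R241E and 0.0292 to 0.0504 in WT. Eif2ak2 was at 0.904 and 0.849 in R241E and 0.359 to 0.378 in WT at 2000 UMIs. Nuclei with none made up 10.6% and 16.1% of R241E microglia at 2000 UMIs, and 66.1% to 67.6% of WT microglia. The bin thus depends on depth, and a nucleus with none may still hold interferon-gene transcripts.

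**Figure D3:**
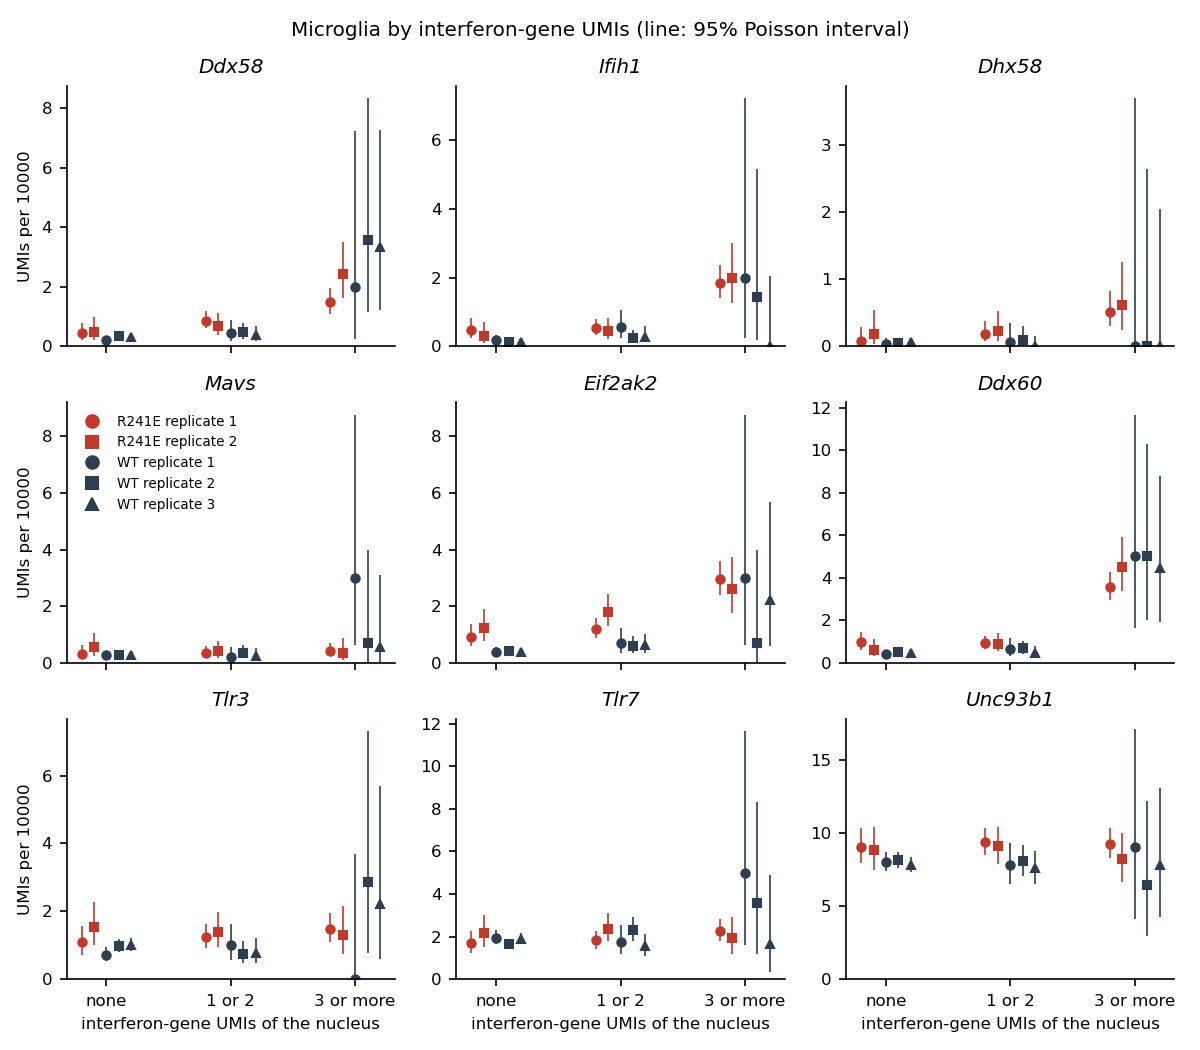
UMIs per 10000 of 9 members in microglia thinned to 1000 UMIs, by the number of UMIs of 23 other interferon genes in the nucleus, with 1 point per library and lines for 95% Poisson intervals (counting error only). Ddx58, Eif2ak2 and Ddx60 are higher with 3 or more interferon-gene UMIs than with none in all 5 libraries, Ddx60 in R241E replicate 1 from 0.96 to 3.55, and Unc93b1 stays at 7.8 to 9.04 in nuclei with none and 6.43 to 9.25 in nuclei with 3 or more. The share of all genes higher in all 5 libraries was not computed.

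Levels across classes are given as a description, since clusters were built from the same genes. In WT, Unc93b1 and Tlr7 were highest, of the 7 tested classes, in microglia and border-associated macrophages. Unc93b1 averaged 817 CPM in microglia (811 to 827) and 713 CPM in border-associated macrophages (681 to 768), ranges that did not meet, and no more than 123 CPM in the other tested classes. Tlr7 averaged 226 CPM in border-associated macrophages (192 to 274) and 198 CPM in microglia (187 to 215), which overlapped, and 19.1 CPM or less in the other tested classes. A small cluster of unnamed leukocytes, with 10, 20 and 45 WT nuclei and not tested, held Unc93b1 at 677, 459 and 471 CPM and Tlr7 at 145, 54.0 and 53.8 CPM in WT, the latter from 3, 2 and 4 UMIs.

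Tlr3 had a different order. It averaged 81.9 CPM in WT microglia, 52.4 in astrocytes, 39.3 in fibroblasts, 34.5 in border-associated macrophages and 33.6 in mural cells, and 6.92 or less in neurons and oligodendrocytes. From astrocytes to mural cells each range overlapped the next, and microglia lay above astrocytes (72.3 to 92.6 against 42.9 to 68.0). Tlr9 was found in microglia only among the 7 classes, and 0 UMIs were seen in the other 6, where absence cannot be told from low depth.

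Of the cytosolic sensors, Ddx60 differed most between border-associated macrophages and microglia in WT. Border-associated macrophages, which line vessels and meninges, held 328 to 425 CPM, and microglia 47.2 to 51.0. Fibroblasts overlapped microglia at 37.2 to 50.2 CPM, and the remaining classes averaged 4.90 to 10.46 CPM. Ddx58 averaged 78.5 CPM in border-associated macrophages, 57.0 in fibroblasts, 38.3 in microglia, 22.9 in mural cells and 11.7 in astrocytes. Ifih1 lay between 22.6 and 39.99 CPM on average in border-associated macrophages, fibroblasts, microglia and mural cells, each range overlapping the next. Mavs was highest in border-associated macrophages, at 53.6 CPM, and then in microglia at 30.4, fibroblasts at 22.5, mural cells at 18.9 and astrocytes at 16.4 CPM.

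**Figure D4:**
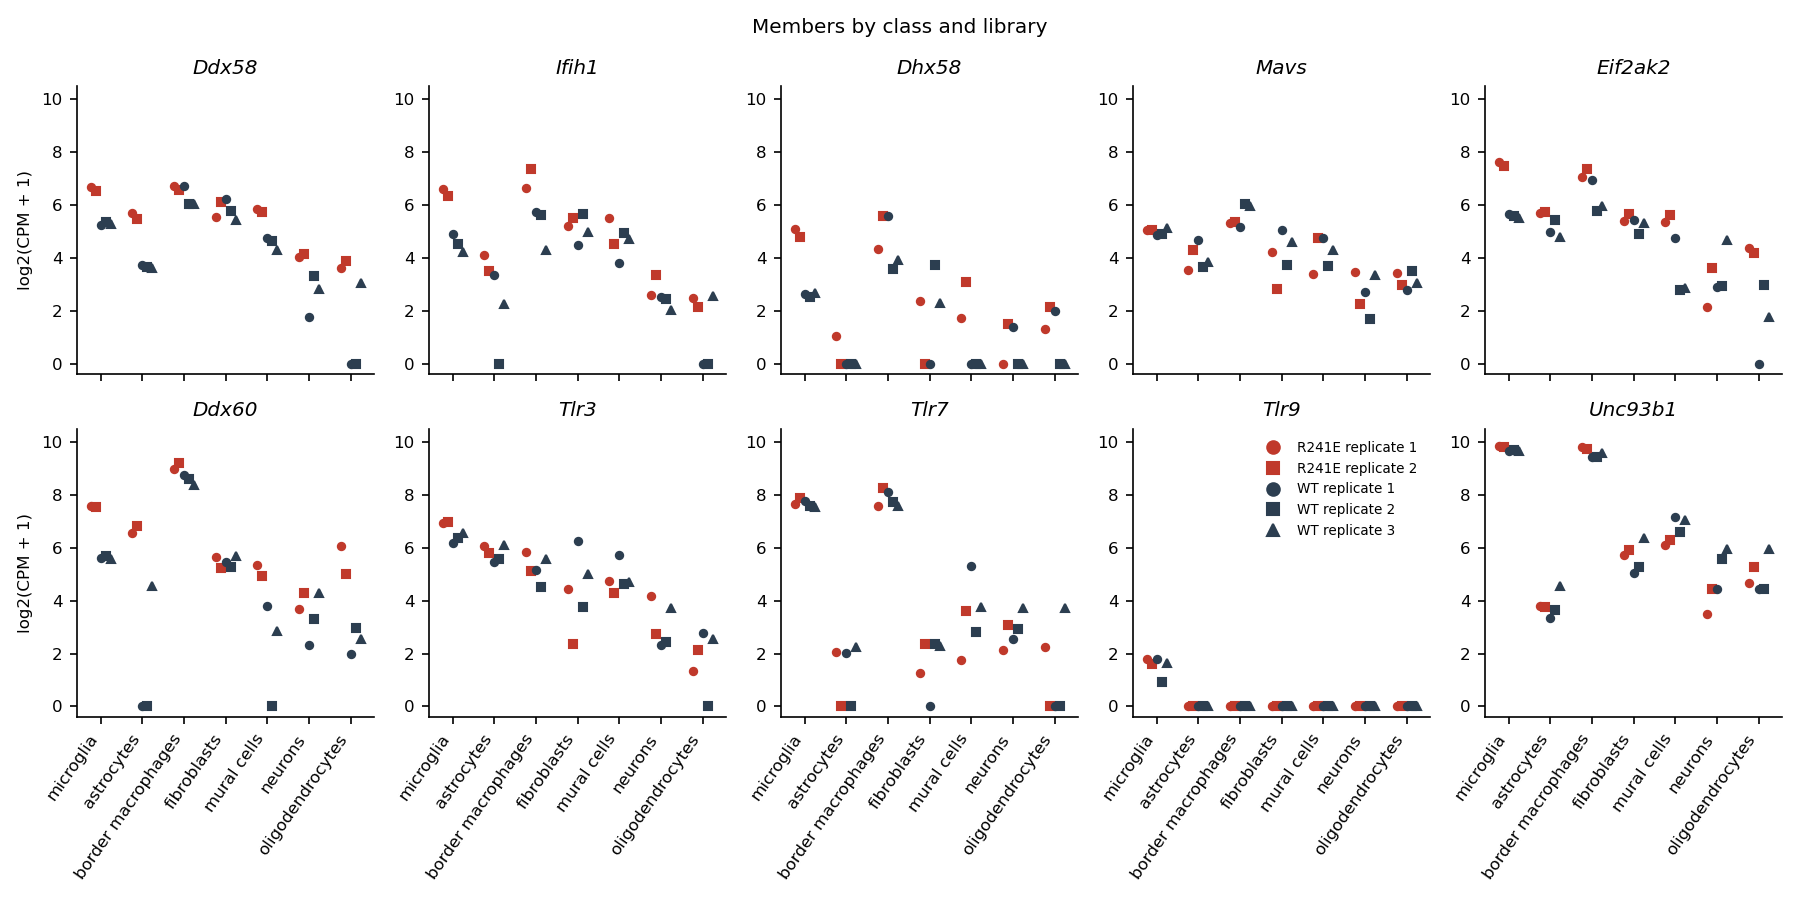
log2(CPM + 1) of each member in the 7 classes, with 1 point per library. Among these classes Unc93b1 and Tlr7 are highest in microglia and border-associated macrophages, Ddx60 is highest in border-associated macrophages (328 to 425 CPM in WT), and Tlr9 is above 0 in microglia only.

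The comparison of R241E with WT was repeated in the 6 other classes, of which border-associated macrophages can also carry the active allele. Of 20 pairs of member and class that could be tested, 4 were called, all higher. They were Ddx58 and Ddx60 in astrocytes, Ifih1 in border-associated macrophages and Ddx60 in oligodendrocytes. All 4 had 0 to 12 UMIs in each WT library and passed the filter on low counts mainly through the R241E libraries, where they were high, so the share of tested members called is not read as a result. Limma-voom called none of the 4, and DESeq2 none of the 3 for which it gave an adjusted p, which it did not for Ifih1.

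Border-associated macrophages, whose 7 markers were all detected (8402 to 9073 CPM summed), had 1 called member, Ifih1, and 0.64% of 4374 genes were called higher there. It was at 99.0 and 162 CPM in R241E libraries against 52.4, 48.8 and 18.7 CPM in WT, from 41, 24, 9, 9 and 4 UMIs. The log2 fold change was 1.65 (SE 0.40, adjusted p = 0.041, edgeR). Without R241E replicates 1 or 2 or WT replicates 2 or 3 in turn, the adjusted p was 0.058, 0.53, 0.33 and 0.34. Ddx60, already high in WT, was at 500 and 594 CPM in R241E libraries against 425, 385 and 328 CPM in WT, and its log2 fold change was 0.53 (SE 0.20, adjusted p = 0.37). Eif2ak2 was at 133 and 162 CPM against 122, 54.2 and 60.9 (log2 fold change 0.90, adjusted p = 0.40).

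In astrocytes Ddx60 and Ddx58 were called, where 0.255% of 7839 genes were called higher. Ddx60 was at 93.3 and 111 CPM in R241E, from 87 and 53 UMIs. In WT it had 0, 0 and 12 UMIs, or 0, 0 and 22.7 CPM. The log2 fold change was 3.31 (SE 0.58, adjusted p = 0.040), and the adjusted p without R241E replicate 1 was 0.21 and without WT replicate 2 0.31. Without WT replicate 3, whose 12 UMIs are all of WT, the log2 fold change was 8.66, which rests on the prior count and bounds nothing.

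Ddx58 was at 50.4 and 43.9 CPM in R241E astrocytes and at 12.2, 11.5 and 11.3 CPM in WT astrocytes, from 4, 3 and 6 UMIs in WT. The log2 fold change was 2.06 (SE 0.39, adjusted p = 0.043). The adjusted p lay between 0.053 and 0.92 with each of the 5 libraries left out in turn. Eif2ak2 did not pass (log2 fold change 0.72, adjusted p = 0.53), and neither did Tlr3 (0.23, adjusted p = 0.91).

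Astrocytes fell into 2 clusters that held the libraries unequally. The cluster c7 held 174 of 177 nuclei of R241E replicate 1 and 32 of 147 of WT replicate 3. Within c7 Ddx60 was at 95.4 and 104 CPM in R241E, and had 0, 0 and 1 UMIs in WT. Microglial markers summed to 247 and 356 CPM in R241E astrocytes and to 300 to 569 CPM in WT astrocytes, with 0 of 9 higher in both R241E libraries than in every WT library. Monocyte and neutrophil markers stood at 314 CPM in WT replicate 3 against 0 to 26.9 in the other libraries.

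In oligodendrocytes Ddx60 was called, where 0.265% of 5655 genes were called higher. It was at 65.4 and 30.9 CPM in R241E, from 86 and 9 UMIs, and at 2.95, 6.91 and 4.85 CPM in WT, from 1, 2 and 2 UMIs. The groups did not overlap (log2 fold change 3.42, SE 0.58, adjusted p = 0.0025), with an adjusted p of 0.061 without WT replicate 2. Without R241E replicate 1 or WT replicate 3 the gene did not pass the filter on low counts. Microglial markers summed to 239 and 220 CPM in R241E oligodendrocytes and to 171 to 594 CPM in WT.

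In fibroblasts 0 of 5 tested members were called by edgeR, limma-voom or DESeq2, and none had an unadjusted p under 0.05. Of all 5788 genes 0% were called higher. Ddx60 was at 49.7 and 37.0 CPM in R241E libraries against 42.6, 37.2 and 50.2 CPM in WT (log2 fold change 0.06, 95% interval -0.77 to 0.90). The fibroblast cluster c12, led by Slc47a1, held 108 of 167 and 82 of 151 R241E nuclei. In WT it held 9 of 30, 27 of 66 and 43 of 94. Astrocyte markers in fibroblasts stood at 746 and 817 CPM in R241E and 1418 to 1599 in WT. The part of this mix in the member values was not tested. In mural cells and in neurons only Unc93b1 could be tested. It was at 68.0 and 78.1 CPM against 143, 95.6 and 131 CPM in mural cells (log2 fold change -0.73, unadjusted p = 0.046, adjusted p = 0.9994), where 0% of 3862 genes were called higher and 0 lower. Ddx58, Eif2ak2 and Ddx60, untested there, averaged 54.2, 44.1 and 34.8 CPM in R241E and 22.9, 12.7 and 6.41 in WT, without overlap. WT held only 9, 4 and 2 UMIs of them. Dhx58 (3 and 0 UMIs) did not overlap either, and Ifih1, Mavs, Tlr3 and Tlr7 did. Of the 3862 genes that passed the filter on low counts, 356 were higher without overlap. Ddx58, Eif2ak2, Ddx60 and Dhx58 did not pass it, so that count does not cover them. In neurons Unc93b1 was at 10.2 and 20.5 CPM against 20.8, 46.8 and 61.6 CPM (log2 fold change -1.39, adjusted p = 0.47), against 0.0115% of 8681 genes called higher and 0 lower. Microglial markers in neurons stood at 221 and 467 CPM in R241E and 424 to 844 in WT, and their part in the Unc93b1 values was not tested.

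**Figure D5:**
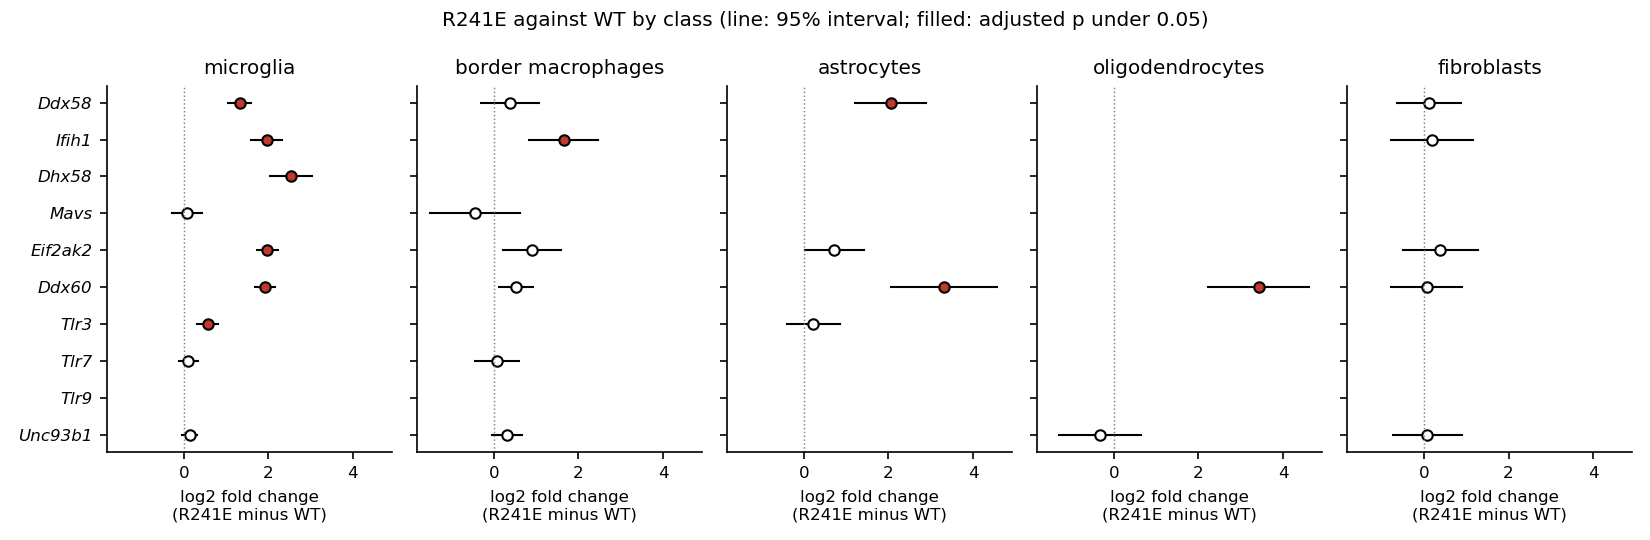
log2 fold change of R241E over WT for members tested in 5 classes, with lines for 95% intervals and filled points at an adjusted p under 0.05 (edgeR). Filled points number 6 in microglia, 1 in border-associated macrophages, 2 in astrocytes, 1 in oligodendrocytes and 0 in fibroblasts, and members that did not pass the filter on low counts have no point.

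The difference between classes was tested itself, as a class-by-genotype term with the library as a block. Of 54 pairs of member and other class, 3 were called. The fold of Ddx60 was larger in microglia than in border-associated macrophages, by 1.40 on the log2 scale (SE 0.22, adjusted p = 1.7e-07), against 0.646% of 10996 genes with a larger change in microglia. Its mean went from 48.6 CPM in WT to 188 in R241E in microglia, and from 379 to 547 in border-associated macrophages. The rise in CPM was thus not larger in microglia. The adjusted p stayed at or under 0.016 with any library left out.

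Against fibroblasts, the change in microglia was larger for Ddx60 by 1.81 (SE 0.44, adjusted p = 0.0078) and for Ifih1 by 1.78 (SE 0.49, adjusted p = 0.035), as for 0.665% of all genes. The part of the unequal mix of fibroblast clusters in these terms was not tested. For Ddx60 the adjusted p rose to 0.061, 0.17, 0.12 and 0.30 without R241E replicates 1 and 2 and WT replicates 1 and 3, and for Ifih1 to between 0.096 and 0.57 with each library left out and 0.11 with no filter on low counts. In the main test no pair was called against astrocytes, oligodendrocytes, neurons or mural cells, where 0.431%, 0.496%, 0.137% and 0.233% of genes had a larger change in microglia. With no filter on low counts the larger change of Eif2ak2 in microglia than in neurons was called (2.44, adjusted p = 0.023, against 2.57 and 0.13 in the main test), as was that of Unc93b1 without WT replicate 1 (1.95, adjusted p = 0.047). The Ddx60 term against astrocytes was -1.43 (SE 0.50, adjusted p = 0.24) and against oligodendrocytes -1.62 (SE 0.63, adjusted p = 0.39). Without WT replicate 3 the term against astrocytes was called (adjusted p = 0.00018). WT astrocytes then held 0 UMIs of Ddx60, so that call is not read as a result.

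The signalling genes around the members were read in microglia from 5 lists. Of the RLR signalling genes, 5 of 24 tested were higher and 0 lower, beside 5.93% of all genes higher and 3.25% lower, with a list median of 0.09 on the log2 scale against -0.01 for all genes. Irf7, the interferon regulatory factor that amplifies the response, was at 46.1 and 52.4 CPM in R241E libraries against 3.64, 4.37 and 4.18 in WT, higher by 3.53 on the log2 scale (adjusted p = 2.5e-08, edgeR). Trim25, an E3 ligase linked to RIG-I, rose by 1.43, Zc3hav1 (ZAP) by 0.95, Tank by 0.67 and Traf3 by 0.40 on the log2 scale.

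Of the endosomal TLR signalling genes, 5 of 24 tested were higher and 0 lower, beside the same 5.93% and 3.25% of all genes, with a median of 0.28. They were Irf7, the cathepsins Ctss (log2 fold change 1.15, 1361 and 1615 CPM against 551 to 755), Ctsb (0.76) and Ctsl (0.70), proteases that cut Toll-like receptors in endosomes, and Pld4 (0.73), an endosomal exonuclease. Of 11 surface TLR genes, 3 were higher, namely Tlr1 (0.86), Tlr2 (0.76) and Ly86 (0.41), and Tlr5 was lower (-1.61, 2.49 and 6.21 CPM against 9.55 to 13.8).

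Of the 12 tested other RNA sensors, Zbp1, which binds Z-form nucleic acid, rose by 5.66 on the log2 scale (30.2 and 35.2 CPM against 0.404 to 0.896), and Adar, which edits double-stranded RNA, by 1.27. Of 13 PKR and eIF2 genes, 0 were called by edgeR, with 1 at an unadjusted p under 0.05, 0 called by DESeq2 and 0 by limma-voom, and a list median of -0.08. At the shares of all genes called (5.93% higher, 3.25% lower), a count of 0 in a list of this size is near the background. Irf7 stands in the RLR and the endosomal list and is also among the 23 interferon genes used for the bins.

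The genes most like each member were taken over 35 sums (7 classes in 5 libraries) by Pearson correlation of log2(CPM + 1), as a description of points that share libraries, classes and depth. Ddx58 was closest to Trim34a (0.94), Ifih1 (0.89) and Ifi35 (0.88), and Ifih1 to Parp14 (0.91), Ddx58 and Parp10 (0.88). Dhx58 was closest to Oas1a (0.92), Gm13166 (0.88) and Ifnar1 (0.87), Eif2ak2 to Herc6, Trim12c and A930037H05Rik (0.87, 0.87 and 0.86), and Ddx60 to Gm4951 (0.91), Gm50237 and Tap1 (0.84). Mavs was closest to Ifnar2, Stx16 and Ssbp1 (0.84, 0.84 and 0.83), and Tlr3 to Jak1, Ctbs and Gna13 (each 0.83). Tlr7 was closest to Gm5086, AU020206 and Themis2 (0.95, 0.94 and 0.94), and genes close to Unc93b1 included Serinc3 (0.97) and Wasf2 (0.95). Tlr9, with 28 UMIs, was left out.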

How the data were processed

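Droplet snRNA-seq counts from 5 libraries were used. The authors deposited raw UMI counts per gene and nucleus, which Cell Ranger 7.0.0 (file header) made against mm10, as the submitters' processing notes and the study's methods state. The labels also name Seurat. The members, gene lists and tests were chosen with earlier results of these data known.

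Nuclei had to hold at least 200 genes and, as in the study, under 4500 genes, under 10000 UMIs and under 5% mitochondrial UMIs. Nuclei were clustered with scanpy 1.11.5 (3000 variable genes, 30 components, 20 neighbours, Leiden resolution 1) into 26 clusters. Clusters were named by the marker list of highest mean log2 fold (at least 2, with 3 markers each in 10% of nuclei), a rule set after clusters were seen. A cluster led by Cga and Tshb and one led by Igkc and Cd74 were kept out of the classes after their leading genes were seen. Doublets were treated through the upper limits, and in an alternative the 158 nuclei with the highest Scrublet scores were left out.

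UMIs were summed per library and class. The test was edgeR 4.0.16 (R 4.3.3, TMM, filterByExpr, quasi-likelihood, genotype only) with Benjamini-Hochberg adjustment over all genes tested, called at an adjusted p under 0.05. DESeq2 1.42.0, limma 3.58.1 (voom), other normalization and filters, and leaving out each library were alternatives. Thinned shares used 1000 UMIs per nucleus. Scripts were tested on simulated counts. Depth was 4183709 to 10130667 UMIs per library, and binomial and Poisson intervals cover counting error only, while those of log2 fold changes come from the spread between libraries in edgeR. Named genes were the members, up to 5 called genes per list with the smallest adjusted p, and the 3 genes most like each member with at least 100 UMIs, of which 1 is not reported here. Coordinates and promoters are from RefSeq GRCm38.p6, the assembly called mm10.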

Additional observations from a re-analysis of the deposited data

Results flagged for a closer look

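A test of the difference itself found that the change of 2 members differed between cell classes. Ddx60 changed by 1.40 more on the log2 scale in microglia than in border-associated macrophages (adjusted p = 1.7e-07, edgeR, class-by-genotype term). Its mean went from 48.6 CPM in WT to 188 in R241E in microglia and from 379 to 547 in the macrophages, so only the fold was larger in microglia. Ddx60 and Ifih1 changed by 1.81 and 1.78 more in microglia than in fibroblasts (adjusted p = 0.0078 and 0.035), as did 0.665% of all genes. These were 3 of 54 pairs tested. The call against border-associated macrophages held with any library left out. Against fibroblasts, the Ddx60 call was lost without most single libraries and the Ifih1 call without any one of them.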

How the results depend on the processing

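The count of members higher in microglia stayed at 6 under each alternative of normalization, filter, tool, doublets, clustering and depth, and was 5 to 6 with 1 library left out. The replicate block, in which WT replicate 3 stood alone, left it at 6. Libraries of the same mouse number had correlations of deviations of 0.097 and -0.019. With 2 R241E libraries their deviations mirror each other, so these values cannot decide whether the mouse numbers pair the libraries. The 4 calls in other classes became 0 with the DESeq2 Wald test, 0 with limma-voom, 2 with the replicate block, 0 with sums thinned to 1000 UMIs, and 0 to 3 with 1 library left out. Called pathway genes, 15 in all, numbered 10 to 20. Called differences between classes, 3 in all, numbered 1 to 2 with 1 library left out. Members higher by share numbered 7 to 9, and those higher in microglia without interferon-gene UMIs 3 at 2000 UMIs and 7 to 9 otherwise. At Leiden resolution 2 the Mavs difference in share was -0.186 percentage points, and the cause was not tested. Among 506 single-gene values under alternatives, 440 were unchanged in direction and call or within the replicate SD, 35 lost a call, 30 moved and 1 reversed. Ddx60 in oligodendrocytes gave no value with thinned sums or without R241E replicate 1 or WT replicate 3, where it failed the filter, and the astrocyte members gave none with thinned sums. DESeq2 gave no adjusted p for Ifih1 in border-associated macrophages.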
